A study of Homo sapiens with 22 samples.

Results

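Tubastatin A, a hydroxamic acid made as an inhibitor of the deacetylase HDAC6, was compared with its solvent DMSO in MDA-MB231 cells, a long-established line from a human breast cancer that lacks hormone receptors and HER2 amplification. The comparison took the 3 libraries whose treatment label reads Tubastatin A and the 3 DMSO libraries of the same experiment, that is 6 of the 22 libraries of the series. All were labelled wild type and sampled on day 2. In the titles of the treated libraries stands TSA, an abbreviation in use for trichostatin A as well, and the treatment label was followed. The dose of Tubastatin A is not given in the sources used here. Set beside them were 3 libraries of wild-type cells given HPOB, a further hydroxamic acid inhibitor of HDAC6, from the same experiment and day. From a separate experiment came 2 libraries of wild-type cells given the HDAC6 inhibitor Nexturastat A at 7.65 µM for 2 days and 2 control libraries (Ctrl), also labelled DMSO. All cells are of 1 line, and nothing in the labels says whether replicates were separate cultures, so p-values measure the spread between these libraries, which may be technical. That spread is estimated with the help of all genes tested, so a gene's p-value does not rest on its own few values alone. The line was checked on its markers. VIM stood at 1370 to 1510 CPM (read counts set to a common library size with edgeR's TMM factors) over the 6 libraries, KRT18 at 349 to 383 CPM and PGR at 0 in each, while of the markers expected to be low ERBB2, the gene of HER2, stood at 88 to 108 CPM and GATA3, a luminal marker, at 11 to 16.3 CPM. Of other cell types, the 10 immune markers summed to 117 to 133 CPM with Tubastatin A and 122 to 123 CPM in DMSO, of which CD68 alone held 113 to 128 CPM with Tubastatin A and 117 to 120 CPM in DMSO, with MS4A1 at 0, and the 10 fibroblast and endothelial markers to 35.99 to 39.03 CPM with Tubastatin A and 33.8 to 37.6 CPM in DMSO, with CDH5 at 0.

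HDAC6 sits mainly in the cytoplasm, where it removes acetyl groups from alpha-tubulin, cortactin and the chaperone HSP90, and it binds ubiquitin, which ties it to the clearance of misfolded proteins. Inhibitors of this class block the enzyme and need not change its mRNA. At higher exposure many hydroxamic acids also reach the nuclear deacetylases, whose inhibition is known to raise a set of otherwise silent genes. Read counts measure mRNA and say nothing of protein acetylation.

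The Tubastatin A libraries held 36906291 to 41261706 counted reads and the DMSO libraries 31238740 to 37362257. Of 26485 gene symbols, 15074 had at least 10 counts in at least 3 of the 6 libraries and were tested. Tubastatin A replicate 2 stood apart. Its log2 CPM correlated with those of the other 5 libraries at 0.988 to 0.990, against 0.996 to 0.997 among the 10 remaining pairs. It exceeded every other library by more than 1.5-fold at 129 genes and lay below every other by that factor at 343 genes, where no other library did so at more than 3 genes. Calls are therefore given with this library (6 libraries) and without it (5 libraries), and levels in every library.

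Over all 6 libraries, edgeR's quasi-likelihood test with Benjamini-Hochberg adjustment over the 15074 genes called 0 genes at an adjusted p under 0.05 (the smallest was 0.548), and 1088 genes (7.22%) had an unadjusted p under 0.05, with 735 higher (4.88%) and 353 lower (2.34%). DESeq2 on the same libraries called 38 genes, 37 of them higher, and 78 genes passed in limma voom with a quality weight per library, 67 of them higher. Without Tubastatin A replicate 2, edgeR called 213 genes (1.41%), and 2131 (14.1%) had an unadjusted p under 0.05. Of the 213 genes 144 were higher (0.955%) and 69 lower (0.458%) with Tubastatin A. In what follows, "rose" and "fell" refer to these 213 genes, none of which edgeR called over 6 libraries. Most changes were small. The median absolute log2 fold change was 0.29, 18 genes passed 1.5-fold and 4 passed 2-fold. The largest absolute value was 1.95 among genes that rose and 4.48 among those that fell, both at genes whose mean log2 CPM lay below 2. The groups did not overlap over all 6 libraries at 105 of the 144 genes that rose and 32 of the 69 that fell. Of all tested genes 8.62% lay wholly higher and 8.36% wholly lower. In the 5 libraries that gave the calls, 212 of the 213 genes already did not overlap, beside 4470 of all 15074. At these, only replicate 2 could add overlap, so the counts over 6 libraries are no separate support for the calls.

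The number of calls without replicate 2 changed when a further library was left out. With DMSO replicate 1 left out there were 68 calls, with DMSO replicate 2 left out 38 and with DMSO replicate 3 left out 210. Leaving out Tubastatin A replicate 3 gave 35 calls and leaving out Tubastatin A replicate 1 gave 1164, but these fits hold 1 Tubastatin A library, which is assumed to vary like the 3 DMSO libraries that alone give the spread. Where the HPOB libraries were added to the 5-library fit, 0 genes were called and 411 had an unadjusted p under 0.05. Genes that rose had a median GC content of 59.8% and those that fell 41.4%, against 48.5% over all tested genes with a matched transcript. When trends of each library with GC content and length of the transcript were removed, 370 genes were called, 163 higher and 207 lower, and 143 of the 213 were among them. Their part in single calls was not tested beyond this setting. DESeq2's 38 calls over 6 libraries included 34 genes (89.5% of them) that were among the 213 (16.0% of those).

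**Figure D1:**
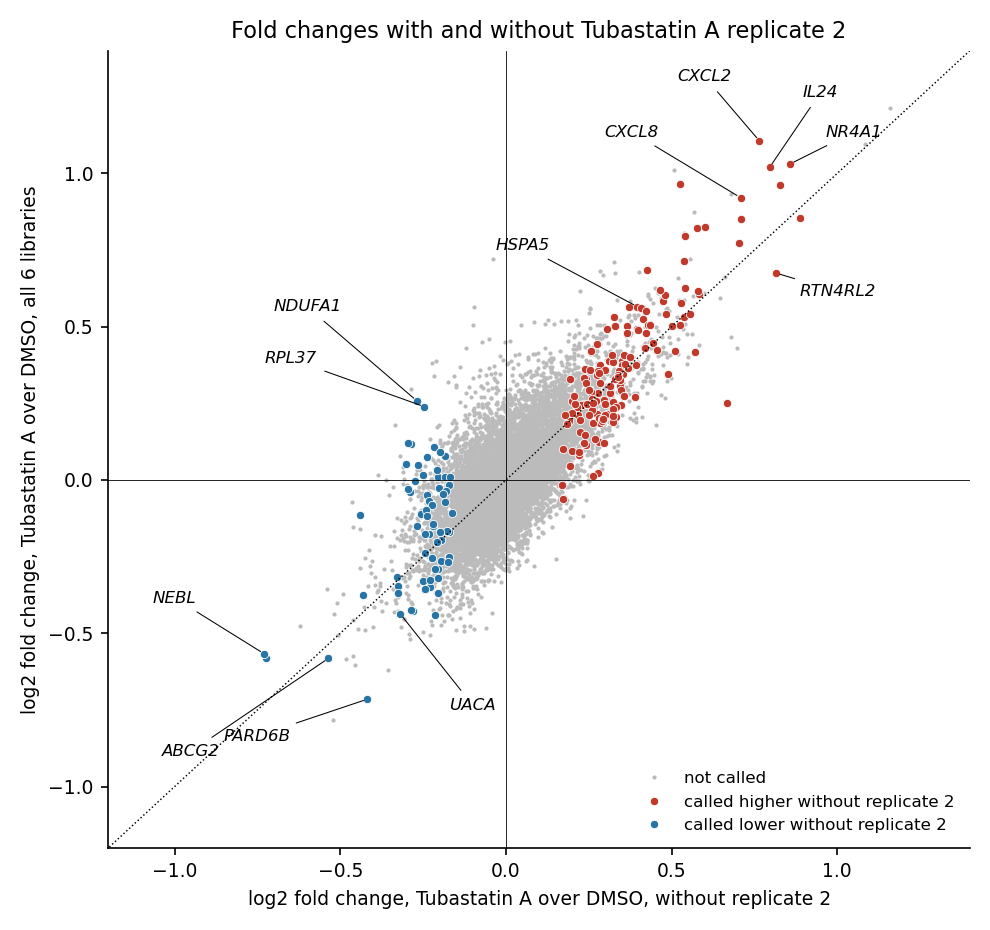
Log2 fold change of Tubastatin A over DMSO without Tubastatin A replicate 2 (horizontal) and over all 6 libraries (vertical) for the 11485 tested genes whose mean log2 CPM reached 2, of which 208 were called without replicate 2 (red higher, blue lower); the dotted line marks equal values. CXCL8, IL24, CXCL2 and NR4A1 lie above the line and far from 0 on both axes, whereas RPL37 and NDUFA1 lie left of 0 on the horizontal axis and above 0 on the vertical axis.

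The target's own mRNA did not pass the test. HDAC6 had 94.3, 121 and 96.5 CPM in the Tubastatin A replicates 1 to 3, against 89.3, 86.1 and 98.6 CPM in the DMSO replicates 1 to 3. The groups overlapped, with replicate 2 the highest of the 6. Its log2 fold change had an SE of 0.11 and a 95% interval of -0.06 to 0.43 over 6 libraries (adjusted p = 0.67), and an interval of -0.06 to 0.19 over 5 (adjusted p = 0.718). Of 18 histone deacetylases and sirtuins 1 rose, beside 0.955% of all tested genes. It was HDAC5, which encodes a deacetylase that shuttles between nucleus and cytoplasm. It had 48.9, 51.3 and 57.8 CPM with Tubastatin A and 39.3, 39.1 and 43.3 CPM in DMSO, without overlap. The log2 fold change was 0.38 ± 0.10 (SE, adjusted p = 0.65) over 6 libraries and 0.39 ± 0.08 (adjusted p = 8.51e-04) over 5. The list's median log2 fold change was 0.03 without replicate 2 and 0.05 with it, beside 0.00 over all tested genes in both.

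Without replicate 2, 6 of 21 tested interleukins and related cytokines and 2 of 13 chemokines rose with Tubastatin A, and none fell. Over all tested genes 0.955% rose and 0.458% fell, and the counts of every list below stand beside these shares. Over 6 libraries none of them was called by edgeR. CXCL8 encodes interleukin-8, a chemokine that draws neutrophils. IL24 encodes a cytokine of the interleukin-10 family, and IL1A encodes interleukin-1 alpha, an alarm cytokine that acts on neighbouring cells. The promoters of these 3 genes and of HSPA5, a chaperone gene described further on, are shown because their mRNAs rose and because known elements for AP-1, NF-kB and endoplasmic reticulum stress can be read in some of them. Each runs 5′ to 3′ on the gene's own strand, from 250 bases before to 50 after the annotated start (RefSeq, GRCh38.p14). Capitals mark matches to the AP-1 element TGANTCA, to the NF-kB element GGAATTTCC or to the endoplasmic reticulum stress element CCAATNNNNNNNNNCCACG, each searched on both strands. The AP-1 letters read alike on both strands, and no matches overlap.
CXCL8 promoter, chr4:73740319-73740618, plus strand: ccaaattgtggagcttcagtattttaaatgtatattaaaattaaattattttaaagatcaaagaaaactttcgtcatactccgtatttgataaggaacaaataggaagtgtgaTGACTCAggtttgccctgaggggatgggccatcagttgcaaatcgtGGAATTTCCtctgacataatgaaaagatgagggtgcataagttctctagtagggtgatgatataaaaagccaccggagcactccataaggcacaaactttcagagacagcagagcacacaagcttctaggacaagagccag
IL1A promoter, chr2:112784444-112784743, minus strand: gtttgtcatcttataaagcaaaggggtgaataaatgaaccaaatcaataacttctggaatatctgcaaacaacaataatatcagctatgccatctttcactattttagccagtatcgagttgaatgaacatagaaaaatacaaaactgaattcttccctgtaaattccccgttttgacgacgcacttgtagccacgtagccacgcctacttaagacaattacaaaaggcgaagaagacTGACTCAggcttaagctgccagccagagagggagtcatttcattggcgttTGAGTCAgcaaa
IL24 promoter, chr1:206897193-206897492, plus strand: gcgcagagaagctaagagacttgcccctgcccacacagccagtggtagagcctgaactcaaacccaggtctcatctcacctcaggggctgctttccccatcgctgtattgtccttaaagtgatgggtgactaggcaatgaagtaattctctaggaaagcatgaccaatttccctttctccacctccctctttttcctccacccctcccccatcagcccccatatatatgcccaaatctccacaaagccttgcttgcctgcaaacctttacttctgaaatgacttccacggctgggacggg
HSPA5 promoter, chr9:125241294-125241593, minus strand: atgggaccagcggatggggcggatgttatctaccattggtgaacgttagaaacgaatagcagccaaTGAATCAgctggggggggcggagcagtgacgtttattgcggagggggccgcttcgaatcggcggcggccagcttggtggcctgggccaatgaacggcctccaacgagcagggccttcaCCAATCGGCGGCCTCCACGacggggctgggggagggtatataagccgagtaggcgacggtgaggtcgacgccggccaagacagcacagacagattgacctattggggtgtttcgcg
The CXCL8 window holds 1 AP-1 match, beginning 137 bases before the start, and 1 NF-kB match, beginning 91 bases before it. In the IL1A window 2 AP-1 matches stand, the first beginning 12 bases before the start. The IL24 window holds none of these letters. HSPA5 has 1 stress element beginning 66 bases before its start and 1 AP-1 match. The window of HERPUD1, a further stress gene that rose, was searched as well and holds none of these letters. Only the letters as given were searched, so other forms of these elements may be present in any window.

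Promoters from the same table were matched for 105 of the 144 genes that rose, 55 of the 69 that fell and 10864 of the 15074 tested genes. The AP-1 letters were found in 7 promoters of genes that rose (6.67%), in 3 of genes that fell (5.45%) and in 5.01% of the promoters of tested genes. The NF-kB letters were found in 3 (2.86%), 0 and 0.451% of them, the letters TGACGTCA of the ATF/CREB element in 8 (7.62%), 1 (1.82%) and 3.13%, and the stress element in 1 (0.952%), 0 and 0.129%. Over the 27305 promoters of the table the shares were 7.76% for AP-1, 0.472% for NF-kB, 1.98% for ATF/CREB and 0.0806% for the stress element. These are shares of windows that hold the letters and not of bound sites. The genes that rose include CXCL8 among the 3 NF-kB matches and HSPA5 as the 1 stress element match. As the motifs were chosen after these sequences were seen, the shares are no test of enrichment.

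CXCL8 stood at 123, 183 and 126 CPM in the Tubastatin A replicates 1 to 3, against 78.6, 76.6 and 73.0 CPM in the DMSO replicates. All treated libraries were above all DMSO libraries, with replicate 2 the highest. The log2 fold change was 0.92 ± 0.14 (SE, adjusted p = 0.548 by edgeR, 4.96e-05 by DESeq2) over 6 libraries and 0.71 ± 0.06 (adjusted p = 1.74e-17) over 5. Leaving out any further library of the 5 kept it between 0.68 and 0.73. IL24 had 28.9, 45.8 and 32.3 CPM with Tubastatin A, against 16.8, 19.7 and 16.3 CPM in DMSO. Its groups likewise did not overlap, and replicate 2 was again the highest. The IL24 log2 fold change was 1.02 ± 0.17 (adjusted p = 0.548 by edgeR, 7.68e-05 by DESeq2) over 6 libraries and 0.80 ± 0.10 (adjusted p = 2.23e-09) over 5. IL1A had few reads, at 4.22, 5.47 and 3.36 CPM with Tubastatin A, from 157, 228 and 124 reads, against 1.31, 1.62 and 1.96 CPM in DMSO, from 48, 60 and 61 reads. It too showed no overlap. The log2 fold change was 1.42 ± 0.25 (adjusted p = 0.548 by edgeR, 9.36e-04 by DESeq2) over 6 libraries and 1.22 ± 0.26 (adjusted p = 0.0023) over 5.

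**Figure D2:**
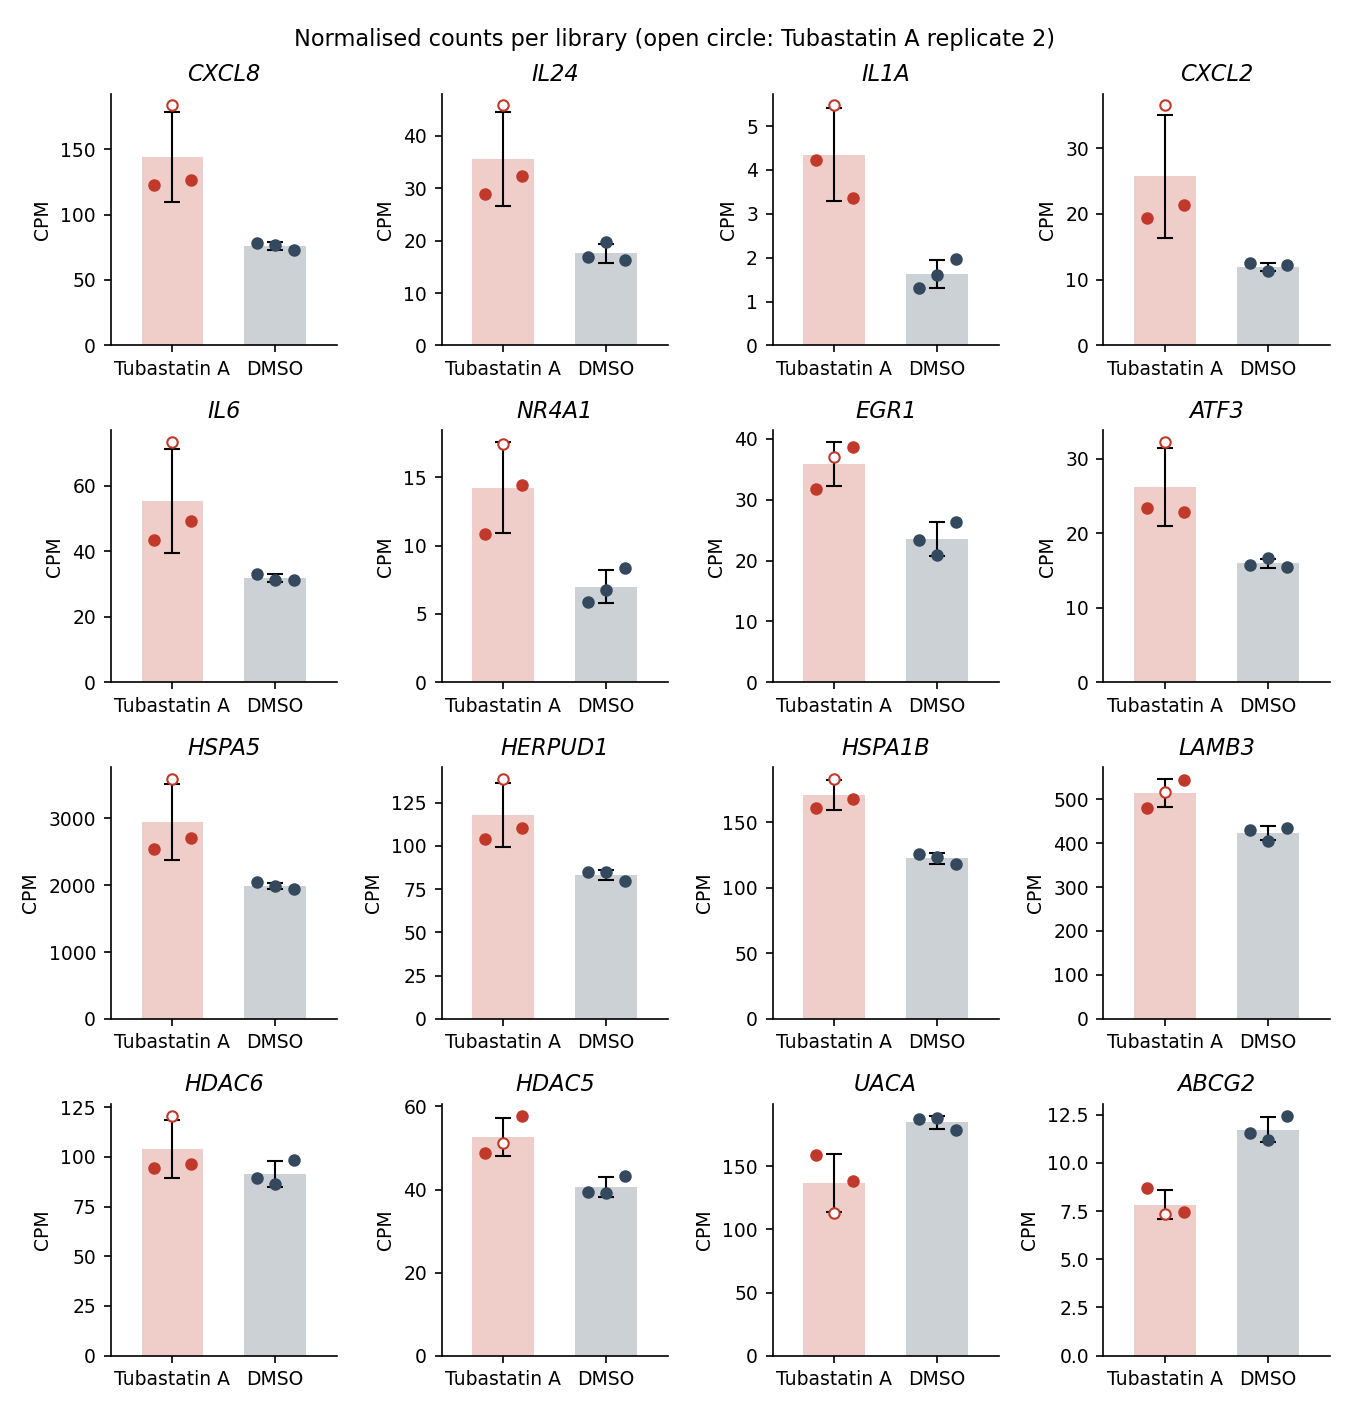
Normalised counts (CPM, linear axis from 0) of 16 genes in each library, with Tubastatin A (red) left of DMSO (dark blue); bars are means, whiskers SD of 3 libraries, and the open circle is Tubastatin A replicate 2. CXCL8, IL24, IL1A and CXCL2 are higher in all Tubastatin A libraries, HDAC6 overlaps between the groups, and UACA and ABCG2 are lower in all Tubastatin A libraries.

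Among the interleukins and related cytokines the median log2 fold change was 0.24 without replicate 2 and 0.34 with it. For all tested genes it was 0.00 in both. Of the 21 genes 10 were wholly higher in the Tubastatin A libraries, beside 8.62% of all tested genes. Beside IL24 and IL1A the list included IL6, a cytokine of the acute phase. It had 43.4, 73.4 and 49.3 CPM with Tubastatin A and 33.2, 31.4 and 31.1 CPM in DMSO, and its log2 fold change was 0.80 over 6 libraries (adjusted p = 0.574) and 0.54 ± 0.08 over 5 (adjusted p = 1.96e-06). The other 3 were near the threshold, and all lost the call when replicates were treated as pairs. IL11, a cytokine that signals through gp130, reached a log2 fold change of 0.25 without replicate 2 (adjusted p = 0.016, 0.055 with the replicate block) and 0.36 with it. CSF2, which encodes the growth factor GM-CSF, had 0.53 (adjusted p = 0.0369, 0.10 with the block) and 0.97, and TNFSF15, a member of the TNF family, 0.34 (adjusted p = 0.0354, 0.0724 with the block) and 0.34. None of the 23 tested interleukin receptors and adaptors was called, and their median was 0.03 without replicate 2 and 0.07 with it.

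The chemokines that rose were CXCL8 and CXCL2, and the list's median was 0.20 without replicate 2 and 0.39 with it. CXCL2, a further neutrophil attractant, had 19.5, 36.5 and 21.3 CPM with Tubastatin A and 12.5, 11.3 and 12.2 CPM in DMSO. Its groups did not overlap, and its log2 fold change was 1.11 over 6 libraries (adjusted p = 0.548) and 0.77 ± 0.11 over 5 (adjusted p = 1.55e-06). CXCL1, its close relative, had 8.63, 20.1 and 9.27 CPM with Tubastatin A and 4.86, 5.92 and 8.20 CPM in DMSO, with log2 fold changes of 1.01 over 6 libraries (adjusted p = 0.67) and 0.51 over 5 (adjusted p = 0.0781, and 0.0251 with the GC and length trends removed). CXCL1 was among the genes for which replicate 2 lay furthest above replicates 1 and 3, by 1.13 on the log2 scale. The list as a whole lay 0.56 higher in replicate 2, by the median of its 5 members of at least 5 CPM.

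The NF-kB pathway drives many cytokine genes and is held in check by its own targets. Of 30 tested subunits and feedback genes, 2 rose and none fell, beside 0.955% and 0.458% of all tested genes. The median log2 fold change was 0.15 without replicate 2 and 0.17 with it. Without replicate 2, 14 of the 30 were higher at an unadjusted p under 0.05 by edgeR and 1 lower, beside 7.7% and 6.43% of all tested genes. NFKBIZ, a nuclear cofactor of NF-kB, had 36.2, 46.0 and 37.8 CPM with Tubastatin A and 28.1, 27.9 and 27.2 CPM in DMSO. The groups were apart, and the log2 fold change was 0.53 over 6 libraries and 0.41 ± 0.09 (adjusted p = 0.00201) over 5. ZC3H12A, an RNase that degrades cytokine mRNAs, had a log2 fold change of 0.69 over 6 libraries and 0.43 over 5 (adjusted p = 0.0203, and 0.0584 with the GC and length trends removed). The feedback inhibitors TNFAIP3 and BIRC3 had log2 fold changes of 0.34 and 0.24 over 5 libraries that did not pass (adjusted p = 0.0667 and 0.0729), and passed with those trends removed (0.0333 and 6.3e-04). In all, 13 of the 30 were wholly higher with Tubastatin A and 1 wholly lower, beside 8.62% and 8.36% of all tested genes.

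AP-1 subunits and immediate early genes, which respond within minutes to hours to growth factors and stress, held more higher calls than any other of the 42 lists. Of 22 tested members, 9 rose and none fell, beside 0.955% and 0.458% of all tested genes. The median log2 fold change was 0.22 without replicate 2 and 0.29 with it. NR4A1, an orphan nuclear receptor, had 10.8, 17.5 and 14.4 CPM with Tubastatin A and 5.90, 6.76 and 8.33 CPM in DMSO. Its log2 fold change was 1.03 ± 0.19 over 6 libraries (adjusted p = 0.548) and 0.86 ± 0.14 over 5 (adjusted p = 3.26e-05), with no overlap. EGR1, a zinc finger transcription factor, had 31.8, 37.0 and 38.7 CPM with Tubastatin A and 23.4, 20.9 and 26.4 CPM in DMSO. Here replicate 2 lay between its partners. With that library the log2 fold change was 0.61 (adjusted p = 0.548), and without it 0.58 (adjusted p = 9.48e-06). ATF3, a stress-induced partner of AP-1, had 23.5, 32.2 and 22.9 CPM with Tubastatin A and 15.8, 16.6 and 15.5 CPM in DMSO, and a log2 fold change of 0.71 over 6 libraries (adjusted p = 0.548) and 0.54 ± 0.10 over 5 (adjusted p = 8.47e-04). IER3, an early gene linked to cell survival, stood at 525, 815 and 614 CPM with Tubastatin A and 454, 404 and 464 CPM in DMSO, with a log2 fold change of 0.57 over 6 libraries (adjusted p = 0.67) and 0.37 over 5 (adjusted p = 1.96e-06). NR4A2, MYC, JUND, IER2 and MAFK completed the 9, and of these JUND (adjusted p = 0.0543) and IER2 (0.218) lost the call when GC and length trends were removed.

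The list of MAPK feedback genes includes those of phosphatases and adaptors that damp the kinase cascade. Without replicate 2 it gave 3 higher and 0 lower of 22 tested, beside 0.955% and 0.458% of all tested genes. Its median was 0.06 without replicate 2, against 0.04 with it. DUSP5, a nuclear phosphatase of ERK, had 205, 208 and 219 CPM with Tubastatin A and 164, 176 and 157 CPM in DMSO. Here replicate 2 lay between its partners, and the log2 fold changes were 0.35 over 6 libraries (adjusted p = 0.574) and 0.35 ± 0.06 over 5 (adjusted p = 3.19e-06). DUSP1, a further phosphatase of this family, rose by 0.29 on the log2 scale (adjusted p = 0.00201), against 0.38 over 6 libraries. The remaining call, IL11, is the cytokine given above, which is no phosphatase or adaptor and is counted in both lists.

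Genes of the endoplasmic reticulum stress response made up a further group. Of 28 tested genes of endoplasmic reticulum folding and the unfolded protein response, 6 rose, beside 0.955% of all tested genes, and none fell. The median log2 fold change was 0.11 without replicate 2 and 0.19 with it. In the Tubastatin A libraries 16 of the 28 were wholly higher, beside 8.62% of all tested genes. HSPA5 encodes BiP, the main chaperone of that compartment, and its promoter is shown above. It had 2544, 3587 and 2699 CPM with Tubastatin A and 2041, 1984 and 1942 CPM in DMSO, clear of each other and with replicate 2 the highest. The log2 fold change was 0.56 ± 0.13 over 6 libraries (adjusted p = 0.574 by edgeR, 0.0191 by DESeq2) and 0.40 ± 0.04 over 5 (adjusted p = 8.32e-12). HERPUD1, which aids the removal of misfolded proteins from the endoplasmic reticulum, had 104, 139 and 110 CPM with Tubastatin A and 85, 84.6 and 79.8 CPM in DMSO. Its log2 fold change was 0.50 over 6 libraries (adjusted p = 0.574) and 0.37 ± 0.06 over 5 (adjusted p = 3.26e-05). HYOU1, a chaperone of the same compartment, changed by less, at 624, 652 and 654 CPM with Tubastatin A and 542, 532 and 552 CPM in DMSO, a log2 fold change of 0.25 over 6 libraries and 0.24 over 5 (adjusted p = 0.00103). SDF2L1, SYVN1 and PPP1R15A made up the rest of the 6, and SDF2L1 lost the call with GC and length trends removed (adjusted p = 0.0612).

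ATF4 drives genes of amino acid supply and stress, and 5 of its 32 tested genes rose while none fell. The shares over all tested genes were 0.955% and 0.458%, and the list's median was 0.09 without replicate 2 and 0.12 with it. The 5 were CEBPB, TRIB3, GDF15, SESN2 and CHAC1. CEBPB, a transcription factor also active in cytokine induction, had 64.6, 76.9 and 74.5 CPM with Tubastatin A and 53.1, 52.3 and 57.3 CPM in DMSO, with a log2 fold change of 0.41 over 6 libraries (adjusted p = 0.574) and 0.36 ± 0.07 over 5 (adjusted p = 8.85e-04). TRIB3, a pseudokinase that dampens this response, reached 0.30 over 5 libraries (adjusted p = 0.00295) and 0.36 over 6, and GDF15, a secreted stress factor, 0.33 (adjusted p = 0.00847) and 0.53. With the replicate block and the GC and length trends removed together, CEBPB (adjusted p = 0.0793) and GDF15 (0.106) lost the call. SESN2 lost it with the trends removed alone (adjusted p = 0.0705).

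Cytosolic heat shock genes fold proteins outside that compartment. Of 30 tested, 3 rose and none fell, beside 0.955% and 0.458% of all tested genes. The list's median was -0.03 without replicate 2 and 0.02 with it. HSPA1B, which encodes inducible HSP70, had 161, 183 and 168 CPM with Tubastatin A and 126, 124 and 118 CPM in DMSO. Its log2 fold change was 0.48 over 6 libraries (adjusted p = 0.548 by edgeR, 0.0011 by DESeq2) and 0.42 ± 0.06 over 5 (adjusted p = 2.96e-08). HSPA1A, with 48.9, 64.6 and 59.0 CPM under Tubastatin A and 42.7, 40.7 and 39.2 CPM in DMSO, is nearly identical in sequence, so reads of these 2 genes cannot be assigned with certainty. HSPB1, a small heat shock protein gene, rose by 0.26 on the log2 scale (adjusted p = 0.0203, and 0.31 by DESeq2), against 0.42 over 6 libraries. HSPA6, a strictly inducible HSP70 gene and no member of that list, had 4.98, 4.80 and 5.37 CPM with Tubastatin A and 3.0, 2.48 and 2.89 CPM in DMSO, a log2 fold change of 0.85 over 6 libraries (adjusted p = 0.548) and 0.89 over 5 (adjusted p = 0.00847). HSPB1 (adjusted p = 0.0975) and HSPA6 (0.063) lost the call with block and trends together. The mitochondrial chaperone gene HSPD1 did not pass, at -0.14 over 5 libraries (adjusted p = 0.10) and -0.12 over 6. Beside 0.955% of all tested genes, 2 of 33 aggresome, autophagy and lysosome genes rose. One of them, SQSTM1, the autophagy receptor p62, was higher by 0.20 on the log2 scale (adjusted p = 0.00866), against 0.26 over 6 libraries, and the list's median was -0.02 without replicate 2 and 0.05 with it.

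Matrix and adhesion genes were among the higher calls. Of 34 tested collagens, integrins and laminins 4 rose and none fell, beside 0.955% and 0.458% of all tested genes. The list's median was 0.09 without replicate 2 and 0.05 with it, and LAMB3, ITGA1 and ITGA3 were among the 4. LAMB3, a laminin chain, had 479.9, 517.2 and 543.8 CPM with Tubastatin A and 429.1, 404.2 and 433.3 CPM in DMSO, and its log2 fold change was 0.28 both over 6 libraries (adjusted p = 0.67) and over 5 (adjusted p = 1.33e-04). FN1, which encodes fibronectin, had 383.4, 436.9 and 382 CPM with Tubastatin A and 313.8, 305.4 and 329.5 CPM in DMSO, and also rose by 0.28 (adjusted p = 1.76e-04), against 0.34 over 6 libraries (adjusted p = 0.65). For both genes all treated libraries exceeded all DMSO libraries. The integrin genes were less firm. ITGA1 lost the call with the replicate block (adjusted p = 0.0571), and ITGA3 overlapped between groups once replicate 2 was included and lost the call with the GC and length trends removed (adjusted p = 0.374).

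Further calls were made at genes of few reads. KRT34, a hair keratin gene, had 5.51, 7.39 and 5.94 CPM with Tubastatin A and 2.59, 3.04 and 4.08 CPM in DMSO (log2 fold change 0.96 over 6 libraries, and 0.83 over 5, adjusted p = 0.0118). RTN4RL2, a Nogo receptor relative, had 8.72, 6.76 and 9.97 CPM with Tubastatin A and 5.24, 5.03 and 5.66 CPM in DMSO. PTPRH, a receptor tyrosine phosphatase gene, had 6.86, 9.11 and 7.13 CPM with Tubastatin A and 4.59, 4.44 and 3.76 CPM in DMSO. None of these 3 overlapped between groups, and RTN4RL2 was lowest in replicate 2. The log2 fold change of RTN4RL2 was 0.68 over 6 libraries and 0.82 over 5 (adjusted p = 7.38e-04), and that of PTPRH 0.85 and 0.71 (adjusted p = 0.0156). NPDC1, a neural membrane protein gene of higher level, had 33.8, 39.1 and 36.2 CPM with Tubastatin A and 26.0, 25.3 and 23.7 CPM in DMSO (log2 fold change 0.54 over 6 libraries, and 0.48 over 5, adjusted p = 2.54e-04).

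At the median, genes that fell did so by less, with a log2 fold change of -0.23, against 0.32 for genes that rose. UACA, which encodes a coiled-coil protein of apoptosis regulation, had 159, 113 and 138 CPM with Tubastatin A and 188, 188 and 179 CPM in DMSO. All treated libraries lay below all DMSO libraries. The log2 fold change was -0.44 over 6 libraries (adjusted p = 0.67) and -0.32 ± 0.06 over 5 (adjusted p = 1.14e-04). HTATSF1, a splicing and elongation factor gene, had 106, 96.8 and 96.0 CPM with Tubastatin A and 118, 128 and 132 CPM in DMSO, a log2 fold change of -0.35 over 6 libraries (adjusted p = 0.606) and -0.33 ± 0.06 over 5 (adjusted p = 2.62e-04). ABCG2, a drug efflux transporter gene, had 8.72, 7.34 and 7.45 CPM with Tubastatin A and 11.5, 11.2 and 12.5 CPM in DMSO. It was the only gene that DESeq2 called lower over all 6 libraries (adjusted p = 0.0338), and its log2 fold change was -0.58 over 6 libraries and -0.54 over 5 (adjusted p = 0.0207). PARD6B, a cell polarity gene, fell to 31.4, 12.9 and 26.9 CPM with Tubastatin A, against 37.4, 41.2 and 38.1 CPM in DMSO. There replicate 2 was the lowest of the 6, and the log2 fold change was -0.72 over 6 libraries (adjusted p = 0.67) and -0.42 over 5 (adjusted p = 0.00186). NOL10, a nucleolar protein gene, and IFT81, of intraflagellar transport, fell too, by 0.33 (adjusted p = 0.00459) and by 0.43 (adjusted p = 0.00741, and 0.0645 with block and trends together) on the log2 scale, against -0.32 and -0.37 over 6 libraries. NEBL and ZEB1-AS1, both at under 7 CPM in every library, had -0.73 and -0.72 over 5 libraries, against -0.57 and -0.58 over 6, and lost the call with the replicate block (adjusted p = 0.0702 and 0.0571).

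Cell cycle genes gave few calls. Of 36 tested genes of mitosis and G2/M, 1 fell and none rose, yet 21 were wholly lower in the Tubastatin A libraries and 22 had an unadjusted p under 0.05 without replicate 2, all lower. Over all tested genes 0.458% fell, 8.36% were wholly lower, and 970 (6.43%) were lower at that p and 1161 (7.70%) higher. The list's median was -0.13 both with and without replicate 2, beside 0.00 for all tested genes. The call was TOP2A, the topoisomerase of chromosome segregation, at 557, 430 and 506 CPM with Tubastatin A and 600, 600 and 599 CPM in DMSO (log2 fold change -0.27 over 6 libraries, and -0.18 over 5, adjusted p = 0.0366). TPX2, a spindle assembly factor gene, had 438, 327 and 427 CPM with Tubastatin A and 479, 493 and 473 CPM in DMSO, without passing (log2 fold change -0.28 over 6 libraries, and -0.15 over 5, adjusted p = 0.0788 by edgeR, 0.0376 by DESeq2). TPX2 passed with the trends removed (adjusted p = 0.0126) and with block and trends (0.0499). Of 38 DNA replication and S phase genes RRM2, a ribonucleotide reductase subunit gene, fell alone (log2 fold change -0.25 over 6 libraries, and -0.22 over 5, adjusted p = 0.0149), and 14 were wholly lower. Of 28 cohesin, condensin and CTCF genes SMC3, a cohesin subunit gene, fell alone (log2 fold change -0.32 over 6 libraries, and -0.20 over 5, adjusted p = 0.0311, and 0.0541 by DESeq2), 12 were wholly lower and the list's median was -0.10 without replicate 2 and -0.17 with it. The genes that fell had a lower median GC content than all tested genes, as given above, and its part in these lists was not tested.

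**Figure D3:**
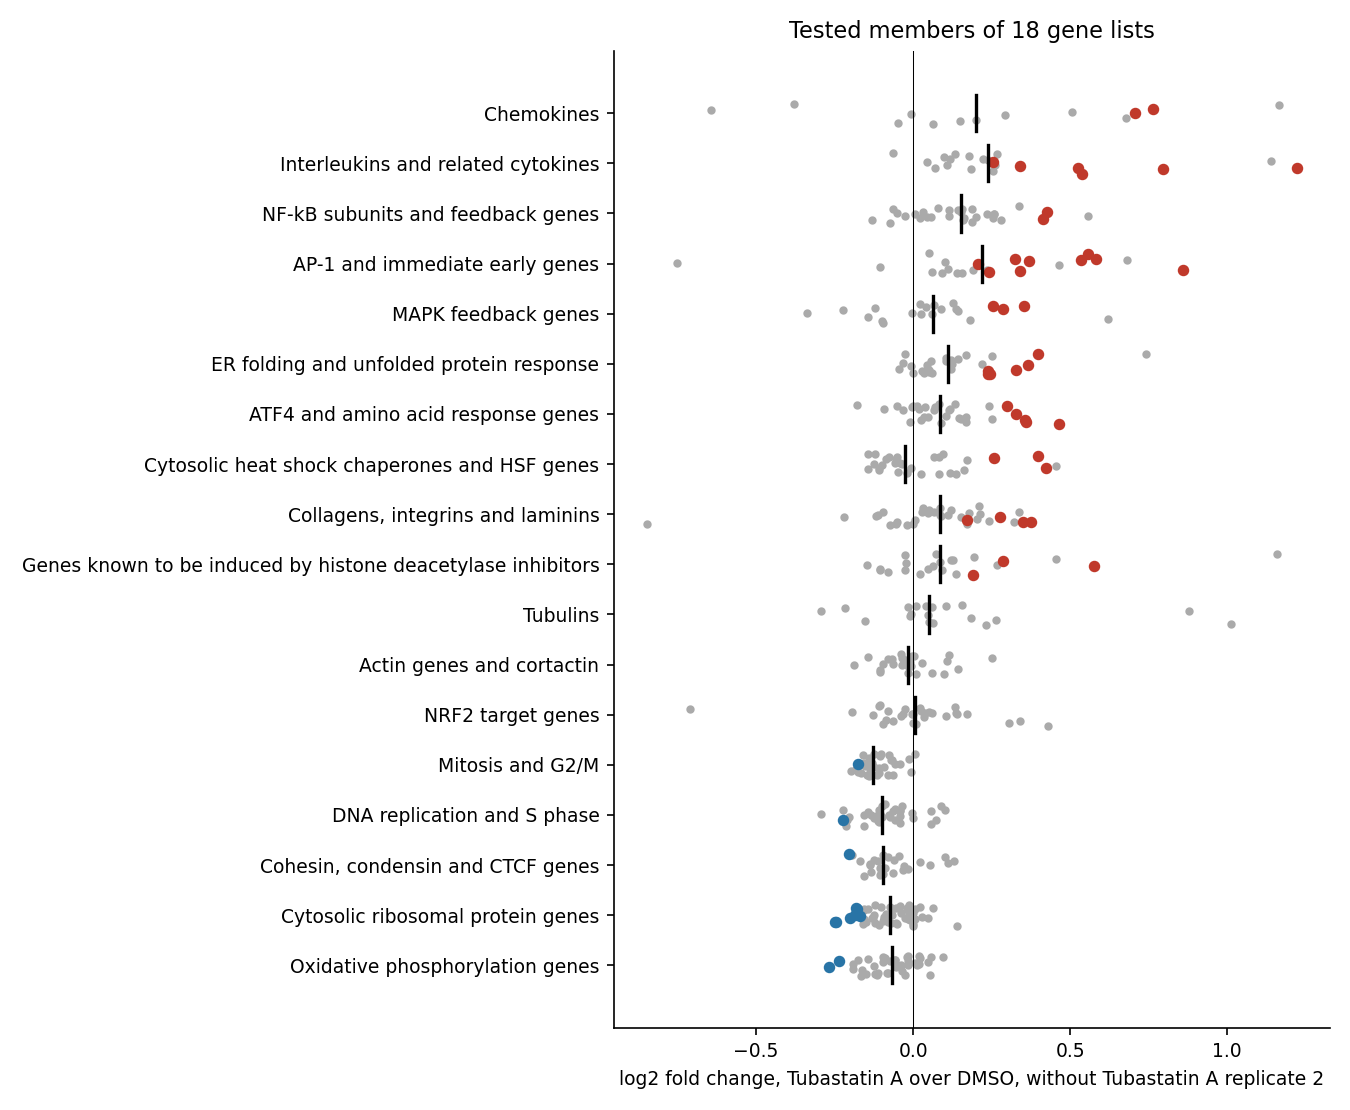
Log2 fold change of Tubastatin A over DMSO without Tubastatin A replicate 2 for each tested member of 18 gene lists; red points rose, blue points fell, grey points did not pass, and black bars are list medians. The chemokine, interleukin and immediate early lists have medians of 0.20 to 0.24 and no blue point, and the mitosis list has a median of -0.13 with 1 blue point.

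For ribosomal protein and oxidative phosphorylation genes, replicate 2 turned the sign. Without it, 7 of 55 cytosolic ribosomal protein genes fell and none rose, and 2 of 38 oxidative phosphorylation genes fell. Of all tested genes 0.458% fell. The list medians were -0.07 for each without that library and 0.12 for each with it. RPL37 had 245, 563 and 267 CPM with Tubastatin A and 286, 336 and 289 CPM in DMSO. Replicates 1 and 3 lay below DMSO and replicate 2 above all others, so that the log2 fold change was 0.24 over 6 libraries (adjusted p = 0.777) and -0.25 over 5 (adjusted p = 0.00486). RPL34, with 217, 352 and 222 CPM under Tubastatin A and 255, 277 and 250 CPM in DMSO, had 0.02 and -0.25 (adjusted p = 0.982 and 0.0023), and NDUFA1, of respiratory complex I, had 0.26 and -0.27 (adjusted p = 0.773 and 0.0371). NDUFA1 lost the call with the replicate block (adjusted p = 0.0632) and RPL37 with the GC and length trends removed (adjusted p = 0.584).

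Tubastatin A replicate 2 deviated across the transcriptome with transcript length. With genes cut into 5 bins of transcript length, its median deviation from the other 5 libraries was 0.27 on the log2 scale in the shortest bin and -0.29 in the longest. The Spearman correlation of deviation with length was -0.578 over 10563 genes, where the other libraries gave 0.097 to 0.51. Replicate 2 is part of the reference of those libraries, which shifts their values away from its own. Ribosomal protein genes lay a median of 0.51 higher in replicate 2 than in replicates 1 and 3, and oxidative phosphorylation genes 0.50 higher, against -0.01 over all 11010 genes of at least 5 CPM. Among the genes lowest in replicate 2 was AXL, a receptor tyrosine kinase gene typical of this line, at 1566, 675 and 1611 CPM with Tubastatin A and 1630, 1531 and 1574 CPM in DMSO. HPOB replicate 3 deviated from its own partners in the same direction, with a correlation of 0.572 across 11010 genes, which are not independent replicates. Tubastatin A replicate 3 deviated with GC content, at a Spearman correlation of 0.561, where DMSO replicates 1 and 2 had -0.398 and -0.416. The part of these deviations in each fold change was not tested beyond the settings given.

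**Figure D4:**
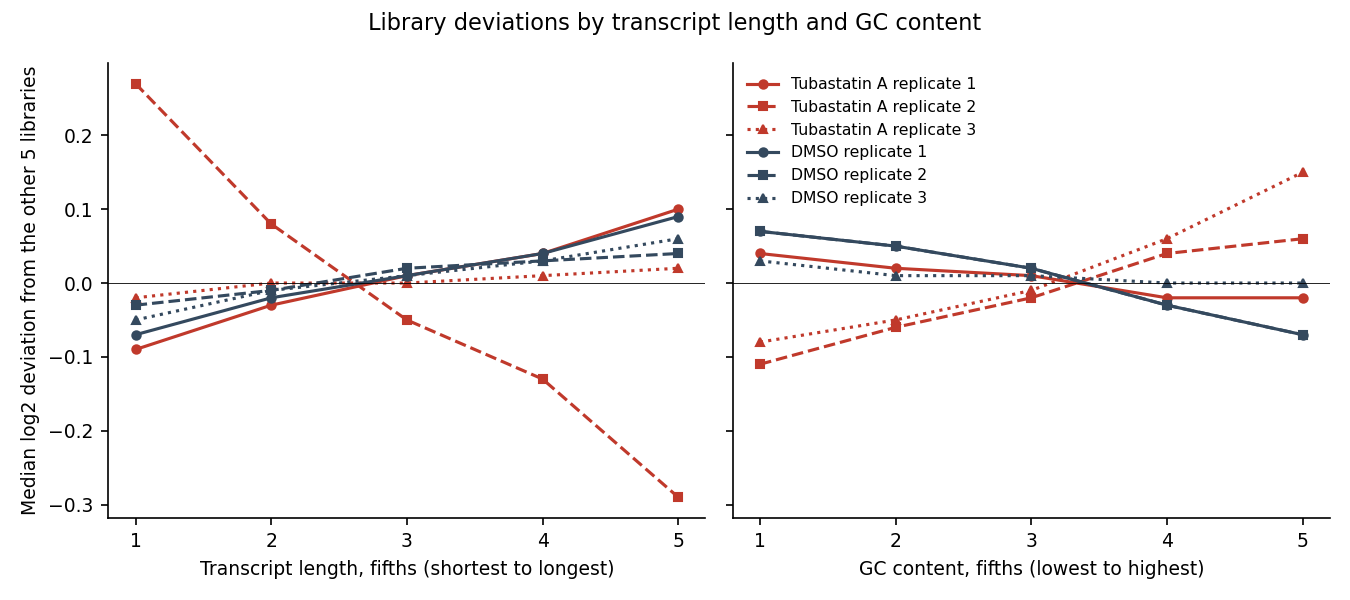
Median log2 deviation of each library from the mean of the other 5, in 5 bins of genes by transcript length (left) and GC content (right); red lines are Tubastatin A and dark blue lines DMSO, with DMSO replicates 1 and 2 lying on each other in the right panel. Tubastatin A replicate 2 is at 0.27 in the shortest bin and -0.29 in the longest, and Tubastatin A replicate 3 is at 0.15 in the bin of highest GC content.

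The lists around tubulin and cortactin, both known substrates of HDAC6, held no calls. The list of heat shock chaperones includes genes of the substrate HSP90. Its 3 calls, given above, were HSPA1A, HSPA1B and HSPB1, none of them an HSP90 gene. None of 19 tested tubulins, 30 tubulin-modifying enzymes and microtubule regulators or 28 actin genes and cortactin passed, and their medians were 0.05, 0.01 and -0.02 without replicate 2 and 0.10, -0.04 and -0.05 with it. Without replicate 2, unadjusted p-values under 0.05 were found at 2, 4 and 5 of these genes, beside 14.1% of all tested genes. Over 6 libraries 3, 1 and 1 were higher at that p and 0 lower, beside 4.88% and 2.34% of all tested genes. NRF2 targets (30 tested), metallothioneins and zinc transporters (21), interferon-stimulated genes (39), MHC genes (23) and the EGF receptor family with its ligands (14) had 0 calls each by edgeR in both fits, and medians of 0.01 to 0.07 without replicate 2 and -0.01 to 0.22 with it, where the MHC genes had 0.22 with and 0.06 without that library. A gene that did not pass is not thereby shown to be unchanged.

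Genes known to be induced by inhibitors of nuclear deacetylases gave 3 higher and 0 lower of 23 tested without replicate 2. The shares over all tested genes were 0.955% and 0.458%, and the list's median was 0.08, against 0.19 with that library. The 3 were DUSP1, CTGF and CRIP2, and the last of these, a LIM domain protein gene, lost the call with the replicate block (adjusted p = 0.0632). DHRS2, a short-chain dehydrogenase gene known for its strong response to such inhibitors, had 1.51, 1.15 and 0.867 CPM with Tubastatin A and 1.39, 1.13 and 1.09 CPM in DMSO. The groups overlapped (log2 fold change -0.04, adjusted p = 0.978). CDKN1A, which encodes the cell cycle inhibitor p21, had 64.3, 80.0 and 72.2 CPM with Tubastatin A and 58.6, 58.5 and 61.7 CPM in DMSO. Here the groups did not overlap but the test was not passed (log2 fold change 0.28 over 6 libraries, adjusted p = 0.67, and 0.20 over 5, adjusted p = 0.129).

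HPOB was measured in the same experiment against the same DMSO libraries, at a dose that is not given in the sources used here, so whether the doses match is unknown. In a fit of the 9 libraries, edgeR called 0 of 15427 genes between Tubastatin A and HPOB, and 480 (3.11%) had an unadjusted p under 0.05. DESeq2 also called 0, with 539 genes at that unadjusted p. CXCL8 was at 123, 184 and 126 CPM with Tubastatin A and at 176, 244 and 198 CPM with HPOB, a difference of -0.52 on the log2 scale (95% interval -0.86 to -0.18, unadjusted p = 0.00585, adjusted p = 0.994). IL1A differed by -0.61 (interval -1.12 to -0.11), IL24 by -0.29 (-0.66 to 0.08) and TNFSF15 by -0.41 (-0.62 to -0.21), while NR4A1 differed by 0.42 (-0.01 to 0.85), each at an adjusted p of 0.994. For HSPA5 the interval was -0.41 to 0.16 and for HDAC6 -0.28 to 0.51. A miss of the threshold does not show that the compounds act alike. Against DMSO, HPOB gave 4 calls, all higher (0.0259%), among them CXCL8 at a log2 fold change of 1.44 (adjusted p = 0.0105) and IL1A at 2.04 (adjusted p = 0.0147).

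Nexturastat A was given at 7.65 µM to cells of the separate experiment, and its effect over its own controls was set against that of Tubastatin A by an interaction term. The effects differed at 3486 of 16439 genes (21.2%), with 1629 higher (9.91%) and 1857 lower (11.3%) for Tubastatin A. The count was 1835 without Ctrl replicate 1 and 1903 without Ctrl replicate 2, in fits that hold 1 Ctrl library and take its spread from the other groups. Experiment and baseline differ between the compounds and cannot be told apart from them, and as the dose of Tubastatin A is not given, the doses cannot be compared. CXCL8 had a log2 fold change of 0.93 with Tubastatin A and 2.77 with Nexturastat A, which differed by -1.85 (adjusted p = 5.34e-04). IL1A had 1.43 and 1.4, a difference of 0.03 with a 95% interval of -0.87 to 0.93. DHRS2 had -0.04 with Tubastatin A and 6.11 with Nexturastat A (difference -6.15, adjusted p = 3.54e-08), and CDKN1A 0.28 and 2.25 (difference -1.96, adjusted p = 2.25e-05). For NFKBIZ and ABCG2 the values under the compounds differed in sign. NFKBIZ had 0.53 with Tubastatin A and -0.76 with Nexturastat A (difference 1.3, adjusted p = 7.45e-04), and ABCG2 -0.58 and 1.44 (difference -2.02, adjusted p = 2.85e-05). For HSPA5 the log2 fold changes were 0.57 and 0.25, with an interval of the difference of -0.17 to 0.81. IL24 had 75 and 48 reads in the Nexturastat A libraries and 0 in both Ctrl libraries, so that it was at least 26.2-fold and 16.4-fold higher in them against a floor of 3 reads per library, where the DMSO libraries of the Tubastatin A experiment already held 16.3 to 19.7 CPM.

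**Figure D5:**
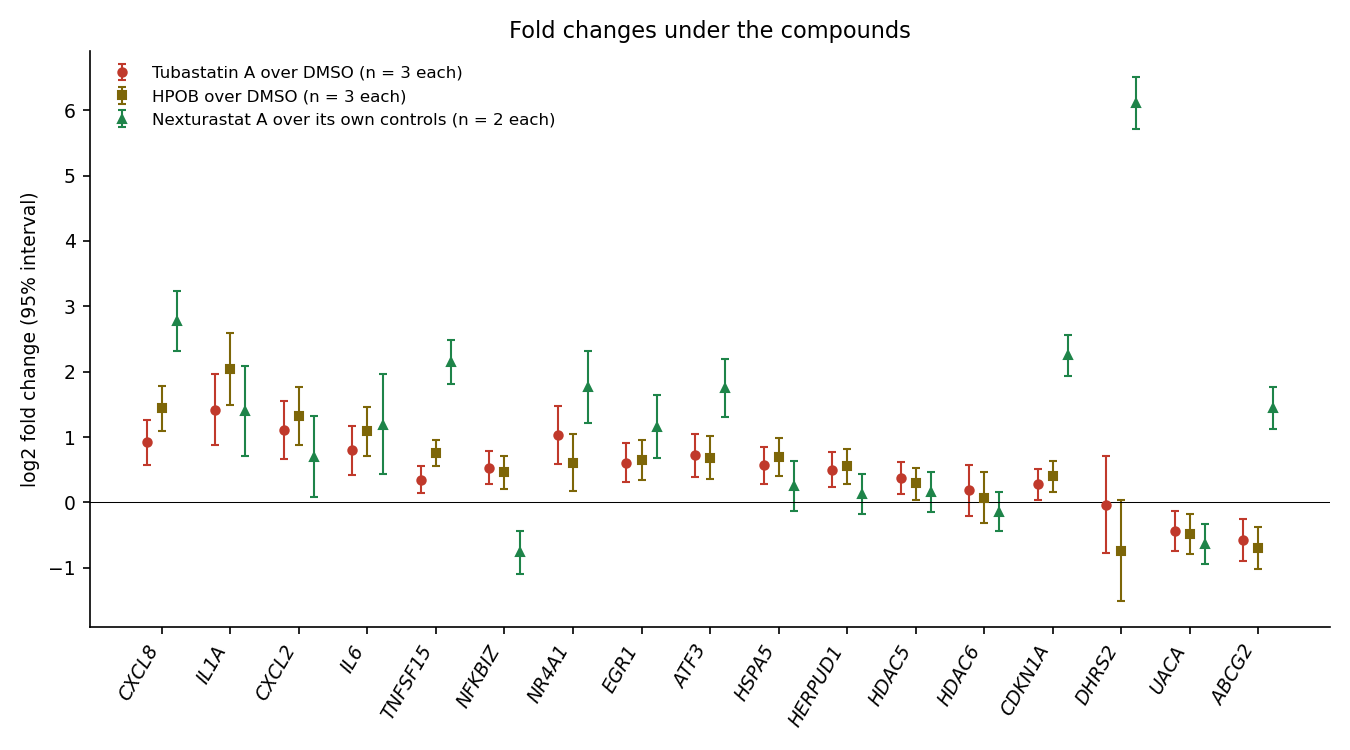
Log2 fold change with 95% interval of 17 genes under Tubastatin A over DMSO (red circles), HPOB over the same DMSO libraries (brown squares) and Nexturastat A over its own controls (green triangles); Nexturastat A comes from a separate experiment, and the doses of Tubastatin A and HPOB are not given. CXCL8 has 0.92, 1.44 and 2.77, DHRS2 is near 0 with Tubastatin A and at 6.11 with Nexturastat A, and NFKBIZ lies above 0 with Tubastatin A and below 0 with Nexturastat A.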

How the data were processed

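Gene-level RNA-seq was analysed in 13 libraries: Tubastatin A, HPOB and DMSO (3 each), and Nexturastat A and Ctrl (2 each). The hairpin libraries were not used here. What the authors deposited is a table of raw read counts by gene symbol for each library. Per the submitters' processing notes, the authors used Trim Galore 0.6.7, STAR 2.7.9a, featureCounts 2.0.3, DESeq2 1.30.1 and the build GRCh38. The annotation, and whether counting used strand, is not given in the sources used here, so overlapping and antisense genes are uncertain.

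Genes with at least 10 counts in 3 libraries of a fit were tested with edgeR 4.0.16 (TMM factors, robust quasi-likelihood F test, R 4.3.3), with Benjamini-Hochberg adjustment over all genes tested and a threshold of 0.05. Fits held the 6 libraries, the same without Tubastatin A replicate 2, the 9 libraries with HPOB, and 10 libraries with Nexturastat A. Levels are CPM scaled by the TMM factors of the fit. The fits were tested on simulated counts with 2-fold changes, without an outlying library and without trends with GC content or length. That test does not show how they perform on small changes or with a library such as Tubastatin A replicate 2. An exact permutation test of 3 libraries against 3 cannot give p below 0.10, and of 2 against 3 not below 0.20.

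Alternatives were DESeq2 1.42.0, limma 3.58.1 (voom with quality weights), other filters, a replicate block, removal of each library's trends with GC content and length of the transcript (splines of 3 degrees of freedom), and leaving out each library; trends together with the block were added after seeing the data. Deviations of same-numbered Tubastatin A and DMSO libraries from their group means correlated across 10995 genes at 0.159, 0.143 and 0.113, and those of unlike number at -0.163 to 0.051, so the numbers were taken as pairing these libraries. That pairing comes from the data and from no label. Deviations within a group cancel out, so the values of unlike number are no separate support for it. Between Tubastatin A and HPOB the same-numbered values were 0.624, 0.093 and -0.35. Between HPOB and DMSO they were 0.135, 0.255 and 0.158. No pairing was assumed for HPOB. The block is named beside a result where it changes the call.

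Lengths and GC content came from GENCODE release 29 (23899 symbols matched). The gene lists (42) and members were chosen with earlier results of these data known, and the promoter motifs after the sequences were seen. Named genes are HDAC6, CXCL8, IL1A, IL24, called deacetylases, the 10 highest and lowest called fold changes without overlap whose mean log2 CPM reached 2 (filled up by smallest p where fewer were called), and up to 4 members of smallest p per list. Part of the 184 genes so selected is described. AXL, CDKN1A, CSF2, DHRS2, IER2, JUND, MYC, NR4A2 and SDF2L1 were chosen after their values were seen. Replicates within a group were not duplicates (chi-square per degree of freedom 4.42 to 84.1).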

Additional observations from a re-analysis of the deposited data

Results flagged for a closer look

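The effect of Tubastatin A over DMSO and that of Nexturastat A over Ctrl differed, by the interaction term of edgeR, at 7 of the 19 genes followed across the compounds, beside 21.2% of all 16439 genes tested, given here as the difference in log2 fold change. It was -1.85 for CXCL8, -1.8 for TNFSF15, -1.03 for ATF3, -6.15 for DHRS2, -1.96 for CDKN1A and -2.02 for ABCG2, so that each was lower for Tubastatin A. For NFKBIZ it was 1.3, higher for Tubastatin A. IL24 also passed (adjusted p = 6.13e-04) and is not among the 7, since it had 0 reads in both Ctrl libraries and its fitted fold change there depends on the prior count. It still counts among the 19. These genes are a selection, with DHRS2 and CDKN1A chosen after their values were seen, so their share is no test against that of all genes. Experiment and baseline differ and cannot be told apart from the compound, and the dose of Tubastatin A is not given.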

How the results depend on the processing

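Over 6 libraries the count of 0 calls became 38 with DESeq2, 78 with voom quality weights, 1 with GC and length trends removed, 2 with the replicate block and those trends, and 0 to 213 on leaving out a library each (213 without Tubastatin A replicate 2). The block alone, other filters and the 9-library fit gave 0, with 740 to 1301 genes at an unadjusted p under 0.05. Without replicate 2, the 213 calls became 370 with the trends removed, 274 with block and trends, 217 with the block (154 shared), and 0 in a fit with HPOB. Leaving out a further library each gave 35 to 1164, both from fits with 1 Tubastatin A library assumed to vary like DMSO, and 38 to 210 where a DMSO library was left out. DESeq2 kept 142 and voom 167 of the 213. DESeq2 gave no adjusted p for IL1A, CXCL2, ATF3 and further genes, which therefore could not count among the 142. CXCL2 had 379 to 786 reads in the 5 libraries. The block alone, and together with the trends, changed no 5-library call of a gene given with values beyond those named in the results. Higher calls made up 67.6% of the 213, 56.4% with DESeq2, 72.9% at a mean CPM of at least 5, 44.1% with trends removed and 46.4% with block and trends. Between Tubastatin A and HPOB every setting run gave 0. The 3486 interaction calls ranged from 1835 to 5000 over single libraries left out (both ends with 1 library in a group) and were 4203 with DESeq2.

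Signs turned at 6 named genes. Over 6 libraries RPL34 had -0.20 by voom, -0.02 with the block, 0.00 with block and trends, and -0.25 to 0.14 on leaving out a library each (-0.01 without DMSO replicate 3). RPL37 had -0.15 by voom and -0.25 to 0.45 on leaving out a library each, and NDUFA1 -0.17 by voom, -0.27 to 0.49 on leaving out a library and -0.01 with block and trends. AXL ranged from -0.49 to 0.01. DHRS2 had 0.00 with trends removed and ranged from -0.25 to 0.14 on leaving out a library (0.08 without DMSO replicate 1). In the 5-library fit DHRS2 ranged from -0.48 to 0.32 (0.09 without DMSO replicate 1), HDAC6 0.00 with trends removed and -0.03 with block and trends, and AXL -0.03 and -0.05 there, -0.01 with the block and -0.01 to 0.03 on leaving out a library. The cause was not tested. Depth limits IL1A and the genes under 10 CPM most.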
